A study of Mus musculus with 18 samples.

Results

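The cells described here are thymocytes that carried CD8A but little CD4 on their surface and held almost no RNA of 5 innate-like genes. A cell was a member if its CD4 antibody value was at most 6.3, its CD8A antibody value was above 6.1, and Il2rb, Klrd1, Fcer1g, Ccl5 and Xcl1 together had at most 1 UMI (unique molecular identifier, 1 captured RNA molecule). An antibody value is the log2 of 1 plus the cell's count of that antibody, scaled to the median antibody total of all cells. This gate took 219 of 1331 cells from 6 mice. The members were chosen by these measured values (CD4 and CD8A antibody and the RNA of the 5 genes), which are given only as a description. The highest CD4 value inside the gate was 6.297 and the lowest outside it 6.317, while the lowest CD8A value inside was 6.132 and the highest outside 6.099. A further 64 cells passed both antibody thresholds and failed on the innate-like genes, 18 of them with exactly 2 UMIs.

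CD8 single-positive thymocytes arise when a CD4+CD8+ (double-positive) thymocyte receives a signal through a T cell receptor that binds MHC class I. Such cells stop transcribing Cd4 under the control of Runx3, keep CD8, and later gain the receptors that guide them to the medulla and out of the thymus. CD8 without CD4 is also seen, more briefly, on dividing immature cells just before the double-positive stage, and these 2 kinds of cell cannot be told apart by CD4 and CD8A antibody alone. As they mature, single-positive cells lose CD24 and gain Klf2, S1pr1, Ccr7, MHC class I and interferon-response transcripts.

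All mice were female bone marrow chimeras on the B6 background, 14 weeks of age and 6 weeks after transplant, and each mouse was 1 sample and not a pool. They had received 30% donor marrow (CD45.1.2, transgenic for OT1 or OT2) and 70% competitor marrow (B6 CD45.1), so that donor thymocytes developed beside competitor cells. OT1 is an ovalbumin receptor restricted by MHC class I, and OT2 an ovalbumin receptor restricted by MHC class II. For each receptor there was 1 NegSelected mouse (a RIPmOVA host, in which the rat insulin promoter drives membrane-bound ovalbumin), 1 PosSelected mouse (a wild-type host) and 1 NoSelection mouse. The NoSelection host lacked B2m for OT1. For OT2 it lacked MHC class II according to the treatment label, although a comment on the same mouse names B2m. The host strains differed as well: C57BL6/Ncr for the wild-type hosts, a C57BL/6 line that carries the Ins2-TFRC/OVA transgene for RIPmOVA, and B6.Ly5.1/Ncr for both NoSelection hosts, so host strain and host genotype cannot be told apart. Thymi were dissociated mechanically and sorted for low CD44, CD45.1.2, Va2 and Vb5. RNA and surface antibodies were counted in the same cells from a single 10x Genomics lane, in which hashtags marked the mice. With 1 mouse for each receptor and host, differences between hosts carry no replicate check.

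The gate rests on 2 antibodies, and 2 more were used to check and to divide the cells: CD8B, the partner of CD8A in the conventional coreceptor, and CD24. Each antibody was read through a DNA barcode of 15 bases, which identifies the reagent and not the gene. The barcodes deposited for these 4 antibodies follow, 5′ to 3′, with the whole barcode in capitals.
CD4: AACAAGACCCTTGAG
CD8A: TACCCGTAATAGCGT
CD8B: TTCCCTCTATGGAGC
CD24: TATATCTTTGCCGCA

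RNA UMIs ran from 525843 to 1867488 per mouse and antibody UMIs from 422283 to 1234798. The members had a median of 4540 RNA UMIs, against 3180 in CD4+CD8A- cells, 2661 in CD4+CD8A+ cells without a Rag1 or Rag2 UMI (Rag-negative) and 6505.5 in the CD4-CD8A+ cells that failed on the innate-like genes. Members of 2 OT2 mice were shallow (median 2394.5 in NegSelected and 2596 in PosSelected), and those of the OT1 mice were deeper (4529.5 in NegSelected, 5445.5 in PosSelected and 5384 in NoSelection). The 4 members of OT2 NoSelection had the highest median, 7448. No cell barcode was shared between mice. Intervals are exact 95% intervals and cover counting error only.

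The working name of these cells, conventional CD8 single-positive thymocytes, was borne out only in part by RNA. Cd8a and Cd8b1, the genes of the CD8 coreceptor, reached 536 and 475 CPM (the gene's UMIs scaled to a total of 1000000 RNA UMIs) over all members, against 23.6 and 65.0 CPM in CD4+CD8A- cells. A Cd8b1 UMI was seen in 151 of 219 members (68.9%, 62.4 to 75.01%) and in 44 of 303 CD4+CD8A- cells (14.5%, 10.8 to 19.0%). Cd4 was at 39.2 CPM in members, against 282 CPM in CD4+CD8A- cells, and 39 of 219 members held a Cd4 UMI (17.8%), against 0 of 64 CD4-CD8A+ cells with at least 2 innate-gene UMIs (0%, up to 5.601%). Zbtb7b, which commits cells to the CD4 lineage, had 0 UMIs in the members. Its level in CD4+CD8A- cells is not given here, so this 0 alone does not set the members apart.

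Runx3, Nrgn and Itm2a separated the members less well. Runx3, the CD8-lineage factor, was at 91.2 CPM in members and at 53.2 CPM in CD4+CD8A- cells, too low for the filter of the test. By mouse, Runx3 in members was at 43.9 CPM in OT2 NegSelected, 32.1 in OT2 PosSelected, 0 in OT2 NoSelection, 61.7 in OT1 NegSelected, 127 in OT1 PosSelected and 61.2 in OT1 NoSelection. Nrgn, a calmodulin-binding protein, had a UMI in 8 of 219 members (3.65%), against 8 of 303 CD4+CD8A- cells (2.64%), which does not set them apart at this depth. Itm2a, induced after positive selection, ran from 81.9 to 1669 CPM by mouse in members, from 64.1 to 1407 CPM in CD4+CD8A- cells and from 83.1 to 2452 CPM in Rag-negative CD4+CD8A+ cells, and did not pass against either class in the paired tests given below. Because of this, the members are called gated CD4-CD8A+ cells below.

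Many of the gated cells of the OT1 mice were in cycle. Cells with at least 3 UMIs of 10 cell-cycle genes made up 7 of 32 gated cells in OT1 NegSelected (21.9%, 9.28 to 40.0%), 23 of 94 in OT1 PosSelected (24.5%, 16.2 to 34.4%) and 14 of 45 in OT1 NoSelection (31.1%, 18.2 to 46.6%). Of the OT2 mice, NegSelected had 0 of 34 (up to 10.3%), PosSelected 0 of 10 (up to 30.8%) and NoSelection 2 of 4. In all, 46 of 219 gated cells were in cycle (21%), against 2 of 303 CD4+CD8A- cells (0.660%), 3 of 119 Rag-negative CD4+CD8A+ cells (2.52%) and 11 of 64 CD4-CD8A+ cells with innate-gene UMIs (17.2%). These pooled shares draw on the mice unequally, since OT2 PosSelected gave 10 of the 219 gated cells and 189 of the 303 CD4+CD8A- cells, and OT2 NegSelected gave 34 of the gated cells and 46 of the 119 Rag-negative CD4+CD8A+ cells. Within OT1 PosSelected, 2 of 44 CD4+CD8A- cells (4.55%) and 1 of 24 Rag-negative CD4+CD8A+ cells (4.17%) were in cycle, and within OT1 NoSelection 0 of 13 CD4+CD8A- cells and 2 of 13 Rag-negative CD4+CD8A+ cells (15.4%). Mki67, a marker of dividing cells, was at 396 CPM in the gated cells and at 4.92 CPM in CD4+CD8A- cells. The rule of 3 UMIs was not scaled to depth, which differed between mice and classes. Cycling gated cells had a median of 9797 RNA UMIs, against 3919 in other gated cells. Leaving out cycling cells thus also left out deep cells, and the part of depth in these shares was not tested.

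The gated cells in cycle carried a different set of transcripts from the rest, which is described here without a test. In the OT1 PosSelected mouse, Dntt, which adds bases at receptor gene junctions in immature thymocytes, was at 237 CPM in cycling and 67.7 CPM in other gated cells. H2-K1, an MHC class I heavy chain, was at 274 CPM in cycling and 975 CPM in other gated cells of that mouse, and Il7r, the interleukin-7 receptor, at 24.6 CPM in cycling and 223 CPM in other gated cells. The OT1 NoSelection mouse went the same way, with Dntt at 558 CPM in cycling and 83.7 CPM in other gated cells, and H2-K1 at 94.9 CPM in cycling and 715 CPM in other gated cells. Every test between classes and every host ratio below was therefore also run without cycling cells, a setting chosen after the data were seen.

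Genes that mark other kinds of cell were present at differing levels, with gamma delta T cell genes among them. Trdc, the constant region of the delta chain, had a UMI in 113 of 219 gated cells (51.6%, 44.8 to 58.4%), and the share differed by mouse. It was 2 of 34 gated cells in OT2 NegSelected (5.88%), 0 of 10 in OT2 PosSelected, 18 of 32 in OT1 NegSelected (56.3%), 56 of 94 in OT1 PosSelected (59.6%, 48.95 to 69.6%) and 34 of 45 in OT1 NoSelection (75.6%, 60.5 to 87.1%). In OT1 PosSelected it was 16 of 44 CD4+CD8A- cells (36.4%, 22.4 to 52.2%) and 14 of 24 Rag-negative CD4+CD8A+ cells (58.3%, 36.6 to 77.9%), with median depths of 3864 and 4825 RNA UMIs against 5445.5 in the gated cells. In OT1 NoSelection it was 0 of 13 CD4+CD8A- cells (up to 24.7%) and 2 of 13 Rag-negative CD4+CD8A+ cells (15.4%, 1.92 to 45.4%), at median depths of 4033 and 3064 RNA UMIs against 5384 in the gated cells. All 6 genes of the gamma delta list had a UMI, and their summed level ran from 0 to 637 CPM by mouse, lowest in OT2 PosSelected and highest in OT1 NoSelection. Sox13, a factor of gamma delta cells, was at 12.1 CPM. The gamma delta receptor antibody did not pass the test against CD4+CD8A- cells (log2 fold change 0.15, SE 0.14, adjusted p = 0.577 by edgeR). Its log2 ratio differed by mouse. It was 0.08 in OT2 NegSelected, -0.26 in OT2 PosSelected, 0.30 in OT1 NegSelected, 0.02 in OT1 PosSelected and 0.68 in OT1 NoSelection. Foxp3 and Ctla4 (regulatory T cells), Zbtb16 (invariant NKT cells), Ncr1, Klrb1c and Klra8 (NK cells), and all 4 globin genes were at 0. The 5 B cell genes summed to at most 45.6 CPM and the 5 thymic epithelial genes to at most 7.36 CPM in any mouse, and the 6 myeloid genes to 96.2 to 136 CPM, with C1qa, C1qb and Itgax at 0. Over all gated cells the 14 innate-like and cytotoxic genes summed to 573 CPM with 7 of them at 0, the 6 invariant NKT genes to 146 CPM, the 6 NK and innate lymphoid genes to 123 CPM and the 5 regulatory T cell genes to 4.52 CPM. The part of such cells in the results was not tested.

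**Figure D1:**
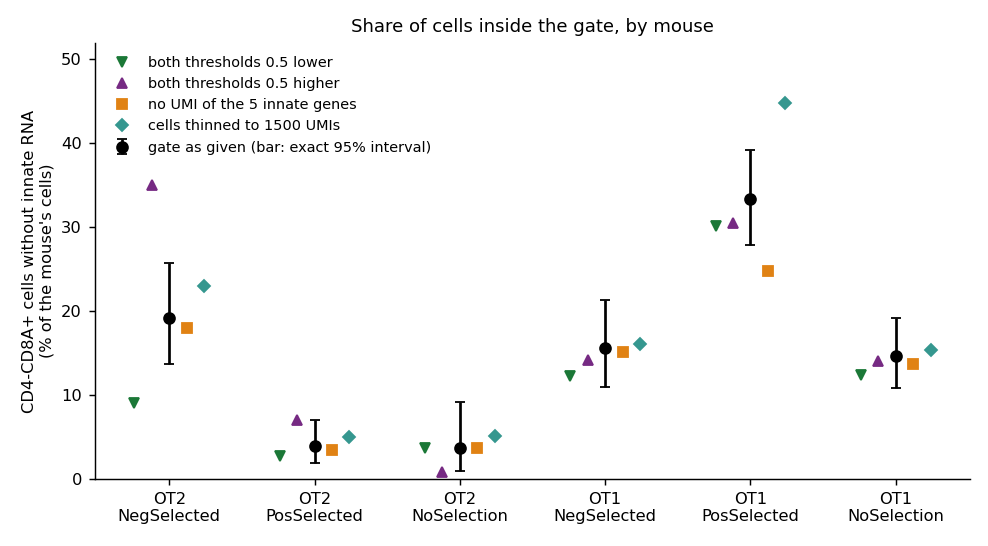
Share of each mouse's cells inside the gate (vertical axis, percent), by mouse (horizontal axis). Black points and bars give the gate as defined with its exact 95% interval, and coloured symbols give 4 other ways to draw the gate. The OT1 PosSelected point lies highest at 33.3%, and the OT2 NegSelected share ran from 9.04% to 35.03% as the thresholds moved.

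Gated cells were most frequent in the OT1 PosSelected mouse. They were 34 of 177 cells in OT2 NegSelected (19.2%, 13.7 to 25.8%), 10 of 254 in OT2 PosSelected (3.94%, 1.90 to 7.12%), 4 of 108 in OT2 NoSelection (3.70%, 1.02 to 9.21%), 32 of 204 in OT1 NegSelected (15.7%, 10.98 to 21.4%), 94 of 282 in OT1 PosSelected (33.3%, 27.9 to 39.2%) and 45 of 306 in OT1 NoSelection (14.7%, 10.9 to 19.2%). The OT1 PosSelected interval did not overlap those of the other 2 OT1 mice, and the OT2 NegSelected interval did not overlap that of OT2 PosSelected. A share of cells cannot be told apart from a change in the number of other cells, and no share has a replicate.

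The OT2 NegSelected share depended on where the CD4 threshold lay. Of its 34 gated cells 19 lay within 0.5 of that threshold (55.9%), against 61 of 219 over all mice (27.9%). With both thresholds 0.5 lower the share was 9.04%, and with both 0.5 higher it was 35.03%. Their Cd4 RNA, at 231 CPM, was the highest of the 6 mice, the other 5 of which ran from 17.7 to 64.1 CPM. In OT1 PosSelected the innate-gene rule mattered: 24 of its 94 gated cells held exactly 1 such UMI, and the share was 24.8% when none was allowed and 44.8% when every cell was thinned to 1500 UMIs.

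The first comparison asked how gated CD4-CD8A+ cells differed from CD4+CD8A- cells of the same mice, which passed the same innate-gene rule. Gated cells carried more RNA of genes of immature and dividing thymocytes, such as Dntt and Hmgb2, and less RNA of genes gained late in thymic maturation, such as Ccr7, Il7r, Samhd1 and H2-K1. The test paired the classes within 5 mice (OT2 NoSelection, with 4 gated cells, was left out), and 157 of 2517 genes passed an edgeR adjusted p of 0.05 (6.24%), 56 higher (2.22%) and 101 lower (4.01%). Cd4 and Cd8a, which encode the gated proteins, and Cd8b1, which encodes the partner of CD8A, were among them, which leaves 54 higher and 100 lower. Since the mice also differed in receptor and host, these p-values measure the spread between such mice. Without cycling cells 31 genes passed, of which 30 were among the 157, all in the same direction. Without OT1 NoSelection 65 passed, and without OT1 NegSelected 55.

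Among genes of immature thymocytes, Dntt was higher in gated cells of every mouse. It had 154, 321, 101, 149 and 357 CPM in gated cells of OT2 NegSelected, OT2 PosSelected, OT1 NegSelected, OT1 PosSelected and OT1 NoSelection, against 8.32, 31.8, 27.7, 57.4 and 0 CPM in their CD4+CD8A- cells. The groups did not overlap, and the log2 fold change was 2.65 (SE 0.42, adjusted p = 0.000739 by edgeR, higher in 5 of 5 mice). The preselection list, which holds genes of double-positive thymocytes before selection, had 2 of 4 tested genes higher and none lower (Dntt, and Tcf12 at 0.84), with a median log2 fold change of 1.05 beside 0.01 over all genes. Cd24a, which encodes CD24, rose by 1.73 (SE 0.45). Without cycling cells Cd24a was at 1.69 with an edgeR adjusted p of 0.0789, and Tcf12 at 0.80 with 0.132, both past the threshold no longer, and Dntt was not among the genes tested.

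Genes used by dividing cells also rose in gated cells. Hmgb2, a chromatin protein, had 87.8, 128, 1498, 1317 and 1725 CPM in gated cells of OT2 NegSelected, OT2 PosSelected, OT1 NegSelected, OT1 PosSelected and OT1 NoSelection, against 166, 95.3, 69.2, 132 and 19.6 CPM in their CD4+CD8A- cells. The 3 OT1 mice were far above the OT2 mice in gated cells, and the change was 2.54 on the log2 scale (SE 0.53, adjusted p = 0.0077 by edgeR). Linker histones H1f4 (2.55) and H1f2 (1.69), lamin B1 (Lmnb1, 1.64) and the maintenance DNA methyltransferase Dnmt1 (1.56) also rose, and of the 3 cell-cycle list genes tested Mcm6 (1.13) and Stmn1 (1.39) rose. Without cycling cells Hmgb2 was at 0.24 (adjusted p = 0.868 by edgeR) and Lmnb1 at 0.30.

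**Figure D2:**
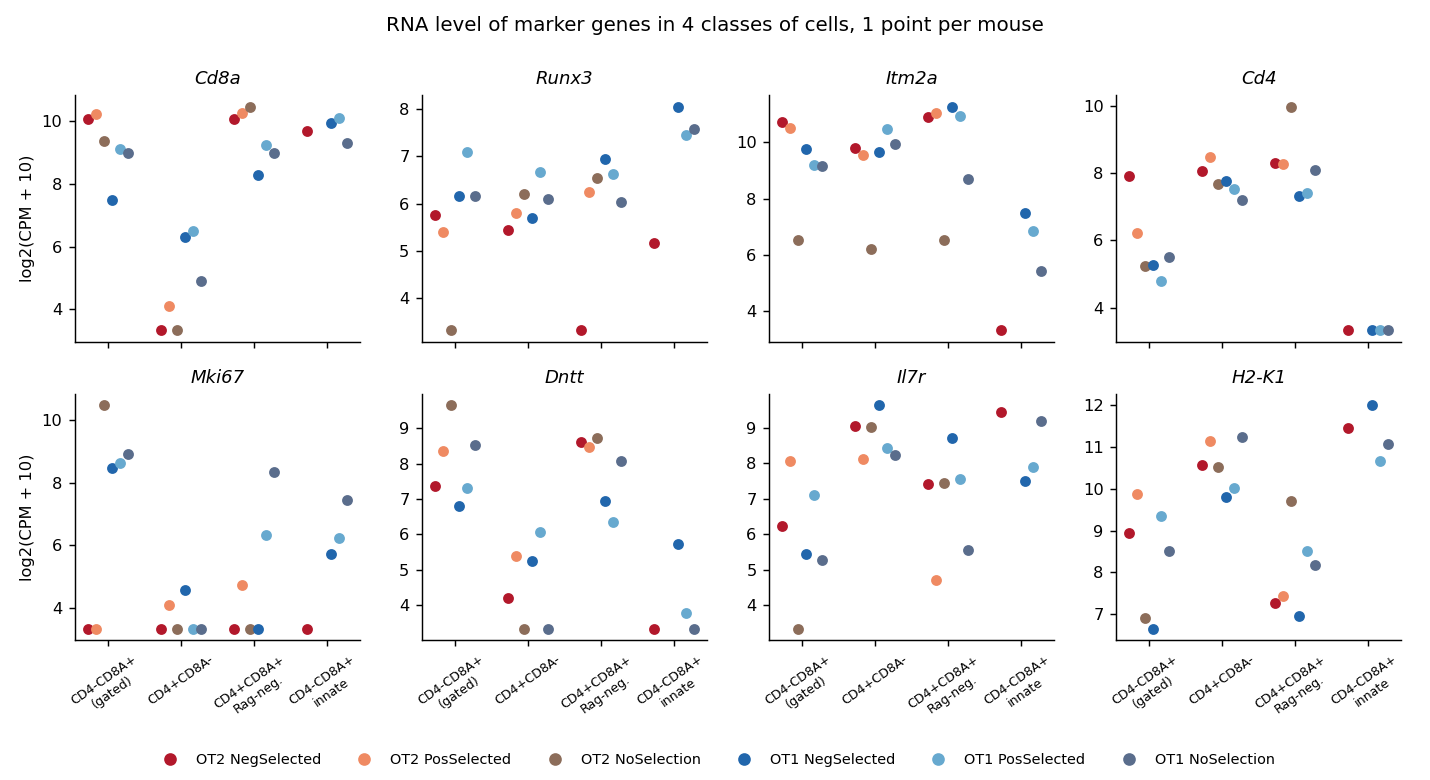
RNA level of 8 genes (vertical axes, log2 of CPM plus 10) in 4 classes of cells (horizontal axes), 1 point per mouse, coloured by mouse. Mki67 is high in the gated cells of the OT1 mice and in the 4 gated OT2 NoSelection cells, and H2-K1 and Il7r are lower in gated cells than in CD4+CD8A- cells of each of the 5 mice tested.

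Most of the maturation genes tested fell. Of 18 genes on the maturation and egress list 15 were tested, 9 were lower and 1, Cd24a, was higher, and the median log2 fold change was -1.26 beside 0.01 over all genes. Ccr7, a chemokine receptor that brings thymocytes to the medulla, had 154, 321, 39.3, 157 and 61.2 CPM in gated cells of OT2 NegSelected, OT2 PosSelected, OT1 NegSelected, OT1 PosSelected and OT1 NoSelection, against 466, 577, 539, 350.3 and 862 CPM in their CD4+CD8A- cells. The groups did not overlap (log2 fold change -2.23, SE 0.36, adjusted p = 0.000838 by edgeR). Samhd1, which breaks down nucleotides, fell by 2.72 (SE 0.36), the GTPases Gimap3 by 2.24 and Gimap4 by 1.75, Slfn1 by 2.20, Klf2 by 1.12 and Cd52, a small surface glycoprotein, by 1.26. S1pr1, the receptor that lets cells leave the thymus, was at -1.3 and did not pass (adjusted p = 0.0908 by edgeR). Without cycling cells 5 of 14 maturation genes still fell, namely Ccr7, Cd52, Gimap3, Gimap4 and Samhd1, and Klf2 did not (-0.69, adjusted p = 0.357 by edgeR).

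MHC class I and interferon-response genes were lower as well. H2-K1 had 483, 929.8, 89.7, 640.1 and 357 CPM in gated cells of OT2 NegSelected, OT2 PosSelected, OT1 NegSelected, OT1 PosSelected and OT1 NoSelection, against 1523, 2243, 885, 1028 and 2429 CPM in their CD4+CD8A- cells. It was lower in 5 of 5 mice, with a log2 fold change of -1.93 (SE 0.29, adjusted p = 0.000353 by edgeR). Of the 9 class I pathway genes 5 fell (H2-K1, H2-D1, B2m, Tapbp and Psmb9; list median -0.97), and of 7 interferon genes tested 6 fell (among them Ifi27l2a by 2.61, Isg15, Zbp1, Irf7 and Rtp4; list median -1.50). Without cycling cells H2-K1 (-1.44, adjusted p = 0.00475 by edgeR) and H2-D1 were the class I genes that passed, and none of these 5 named interferon genes was among those that passed. H2-Q2 had the highest fold change (4.06, SE 0.50) of the genes named in this test apart from Cd8a (4.53), which encodes a gated protein. H2-Q7 fell by 1.93. These class I genes are close copies of one another, so how reads were shared among them is uncertain.

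Genes of receptor signalling moved in both directions, and those of the post-selection stage that passed were lower. Nr4a1, an immediate target of receptor signals, fell by 1.69 (adjusted p = 0.000739 by edgeR), and Id3, an inhibitor of E proteins that such signals also induce, rose by 1.5 (SE 0.32), 2 of 8 tested genes on that list. Id3 had 472, 705, 1122, 705 and 847 CPM in gated cells of OT2 NegSelected, OT2 PosSelected, OT1 NegSelected, OT1 PosSelected and OT1 NoSelection, against 275, 492, 82.98, 138 and 372 CPM in their CD4+CD8A- cells. Id3 and Nr4a1 both passed without cycling cells as well (1.67 and -1.47). Of 10 post-selection genes tested, Il7r fell by 2.45 (SE 0.40) and Tesc, a calcium-binding protein, by 2.10, and none rose. Itm2a did not pass (-0.13, SE 0.27, adjusted p = 0.867 by edgeR).

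Further genes with large changes had other roles. Anxa2, a phospholipid-binding protein, rose by 2.38, Ap3s1, a subunit of the AP-3 sorting adaptor, by 1.75, and the potassium channel gene Kcnq5 by 1.69. Igfbp4 fell by 2.28, the protease gene Ctss by 2.18 and the lipid phosphatase gene Inpp4b by 2.15. Of the CD8-lineage list, no gene outside the gate passed among the 3 tested, with Ctsw at -0.73 (adjusted p = 0.340 by edgeR). Of the CD4-lineage list, Izumo1r, which encodes the surface protein FR4, fell by 1.57, and Gata3 (0.83) and Tox (0.48) did not pass. Izumo1r no longer passed without cycling cells (-0.95, adjusted p = 0.178 by edgeR), and Ap3s1 (1.54) and Inpp4b (-1.58) did.

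**Figure D3:**
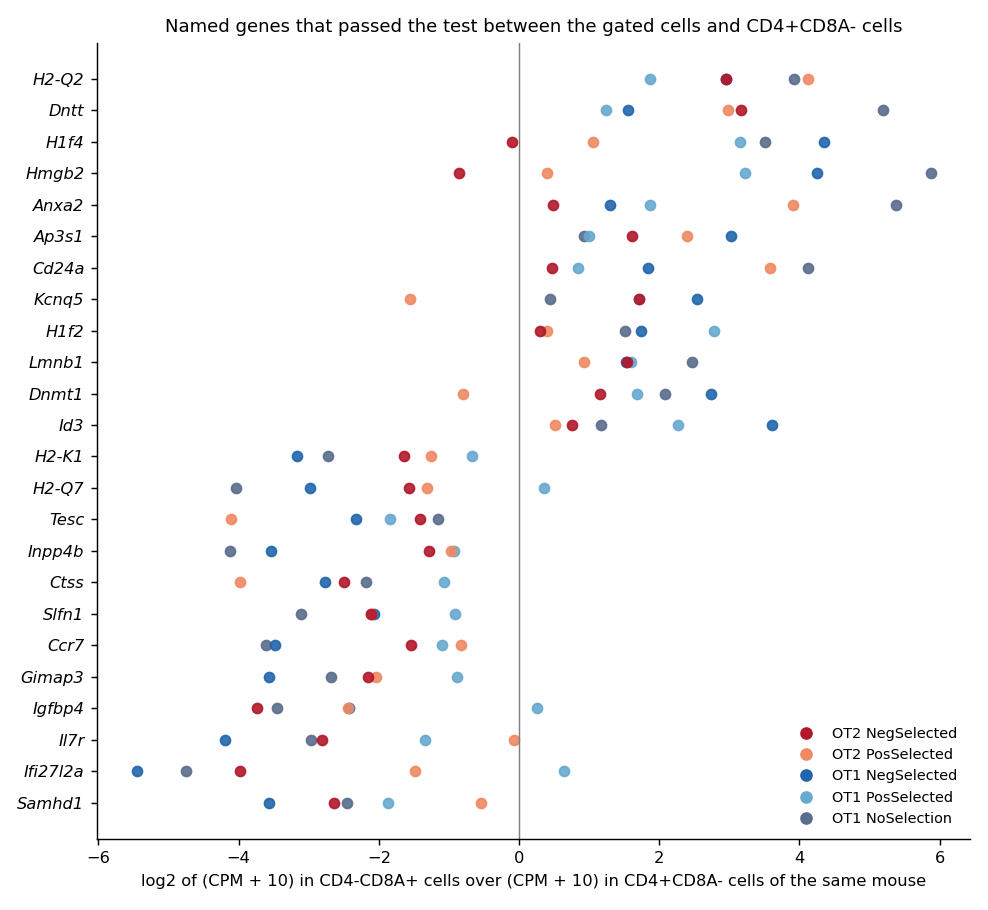
Ratio of each named gene in gated CD4-CD8A+ cells over CD4+CD8A- cells of the same mouse (horizontal axis, log2 of CPM plus 10 over CPM plus 10), 1 row per gene and 1 point per mouse. Dntt and Id3 lie right of 0 and Ccr7, H2-K1 and Samhd1 left of 0 in all 5 mice, while Hmgb2 lies on both sides of 0 in the OT2 mice and far right in the OT1 mice.

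On the surface, gated cells carried less receptor beta chain (TCRB), less CD3 and less FR4 than CD4+CD8A- cells. Of 117 antibodies 14 passed (12%), 4 higher (3.42%) and 10 lower (8.55%), and 3 of them were CD4 and CD8A, which define the gate, and CD8B, the partner of CD8A. FR4 had 2080, 1248, 2040, 2339 and 2487 antibody CPM (UMIs scaled to a total of 1000000 antibody UMIs) in gated cells of OT2 NegSelected, OT2 PosSelected, OT1 NegSelected, OT1 PosSelected and OT1 NoSelection, against 5844, 9157, 9081, 5545 and 18016 in their CD4+CD8A- cells. The groups did not overlap (log2 fold change -2.13, SE 0.27, adjusted p = 0.00414 by edgeR). The receptor beta chain antibody TCRB had 2947, 2996, 2728, 5667 and 4351 antibody CPM in gated cells of the same 5 mice, against 17638, 14842, 9758, 9663 and 14541 in their CD4+CD8A- cells (log2 fold change -1.86, SE 0.28, adjusted p = 0.00949 by edgeR). The antibodies to Va2 (-1.02, adjusted p = 0.0777 by edgeR) and Vb5 (-0.84, adjusted p = 0.0929 by edgeR) did not pass. All cells had been sorted for Va2 and Vb5, so the receptor differences lie within that sorted range.

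CD3, which travels with the receptor, fell by 0.85, and so did CD5 by 0.70, CD44 by 1.24, ICOS by 1.17, the chemokine receptor CCR2 by 1.06, HVEM by 0.81 and CD45 by 0.65, each in 5 of 5 mice. All cells had been sorted for low CD44, so the CD44 difference lies within that sorted range. CD29, integrin beta 1, rose by 0.62 in 5 of 5 mice. CD83 also passed (5.14), but 139 of its 142 UMIs in gated cells came from 1 OT2 NegSelected cell. CD24 did not pass (0.59, SE 0.27, adjusted p = 0.220 by edgeR). Of the 11 antibodies other than CD4, CD8A and CD8B, FR4 alone passed without OT1 NoSelection and without OT1 NegSelected, where TCRB was at -1.87 in both fits with edgeR adjusted p of 0.0724 and 0.0566. Outside CD4, CD8A and CD8B, 3 antibodies passed without OT2 NegSelected and 3 without OT2 PosSelected, FR4 and TCRB among them. Without cycling cells 6 did, among them FR4, TCRB, CD3 and CD44. These were not all among the 11. With CD4, CD8A and CD8B counted, 5 of 6 without OT2 NegSelected and 8 of 9 without cycling cells had also passed in the main fit.

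The second comparison set gated cells against Rag-negative CD4+CD8A+ cells in 4 mice (OT2 NegSelected, OT2 PosSelected, OT1 PosSelected and OT1 NoSelection). Few differences passed. Only Crip1, which encodes a small LIM-domain protein, did so among 1772 genes (0.0564%), and 190 genes had an unadjusted p under 0.05. Crip1 had 329, 289, 784 and 1036 CPM in gated cells of those mice, against 172, 213, 304 and 445 CPM in their CD4+CD8A+ cells (log2 fold change 1.2, SE 0.22, adjusted p = 0.0224 by edgeR, higher in 4 of 4 mice). Crip1 kept its direction but did not pass without OT1 PosSelected or without OT2 NegSelected. DESeq2 called 0 genes and gave 59 an unadjusted p under 0.05.

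H2-K1 and Klf2, both of which rise during maturation, did not pass. H2-K1 had 483, 929.8, 640.1 and 357 CPM in gated cells of OT2 NegSelected, OT2 PosSelected, OT1 PosSelected and OT1 NoSelection, against 143, 164, 357 and 278 CPM in their CD4+CD8A+ cells (1.31, SE 0.26, adjusted p = 0.0501 by edgeR). Klf2, a transcription factor that turns on S1pr1, had 242, 256.5, 349 and 126 CPM in gated cells of the same mice, against 9.54, 16.4, 169.7 and 92.8 CPM in their CD4+CD8A+ cells (1.73, SE 0.41, adjusted p = 0.0796 by edgeR). For both genes the gap was smallest in OT1 NoSelection. Tagln2 (1.70), Lgals1 (1.09) and Hmgb2 (1.16) did not pass either. Without cycling cells 15 genes passed, with H2-K1 at 1.84 (adjusted p = 6.77e-11 by edgeR), Klf2 at 2.11 (5.07e-07), Lgals1 at 1.65, Tagln2 at 1.75, Crip1 at 1.15 and Ms4a4b at 0.96. Without OT1 NoSelection 9 passed.

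Cd8a, which encodes the gated CD8A, did not pass between these classes (0.03, SE 0.18, adjusted p = 0.977 by edgeR). It had 1065, 1186, 543 and 496 CPM in gated cells of OT2 NegSelected, OT2 PosSelected, OT1 PosSelected and OT1 NoSelection, against 1078, 1214, 598 and 501 CPM in their CD4+CD8A+ cells. Cd4 RNA, whose protein is in the gate, was at 231, 64.1, 17.7 and 35.4 CPM in gated cells and at 305, 295, 161 and 259.8 CPM in CD4+CD8A+ cells of these mice. The OT2 NegSelected mouse, which had the highest share of gated cells near the CD4 threshold, had the smallest gap. Dntt (0.09), Id3 (0.04) and Itm2a (-0.53, adjusted p = 0.450 by edgeR) did not pass. For Dntt and Id3 the mice went in opposite directions by receptor. The log2 ratio for Dntt was 0.45 in OT1 NoSelection and 0.96 in OT1 PosSelected, against -0.10 in OT2 PosSelected and -1.26 in OT2 NegSelected. For Id3 it was 0.91 and 0.41, against -0.40 and -1.19, in the same order of mice. That split was not tested.

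Among 116 antibodies, 3 passed between these classes (2.59%), 1 higher (0.862%) and 2 lower (1.72%): CD4, which follows from the gate, CD83, which again rested on 1 cell, and CD5. CD5, whose level follows receptor signal strength, had 79909, 51953, 103702 and 76014 antibody CPM in gated cells of OT2 NegSelected, OT2 PosSelected, OT1 PosSelected and OT1 NoSelection, against 99398, 95495, 136176 and 105977 in their CD4+CD8A+ cells (-0.57, SE 0.08, adjusted p = 0.0354 by edgeR). CD5 was lower in gated cells of every mouse. CD55 (1.3, adjusted p = 0.0771 by edgeR) was higher in 4 of 4 mice and did not pass. With 1 mouse left out, 0 or 1 antibodies passed, with 12 to 16 at an unadjusted p under 0.05.

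Against CD4-CD8A+ cells with at least 2 UMIs of the innate-like genes, gated cells carried less integrin beta 7. Only antibodies were tested, because the gate divides the 2 classes by RNA. In 4 mice with at least 5 cells of each class, 3 of 116 antibodies passed (2.59%), 1 higher (0.862%) and 2 lower (1.72%). Integrin beta 7 (ITB7) had 5292, 2911, 9224 and 6017 antibody CPM in gated cells of OT2 NegSelected, OT1 NegSelected, OT1 PosSelected and OT1 NoSelection, against 17735, 11819, 26401 and 41159 in their innate-gene-positive cells (-2.09, SE 0.27, adjusted p = 0.0395 by edgeR). The groups did not overlap. CD226, an activating receptor, fell by 1.12 (adjusted p = 0.0455 by edgeR), and CD4, part of the gate, was 1.58 higher. CD24 was higher in gated cells of all 4 mice (1.89, SE 0.40) without passing (adjusted p = 0.0735 by edgeR), as was CD28 (0.95), and CD45RB was lower (-1.56). No antibody passed when any 1 mouse was left out, with 20 to 25 antibodies at an unadjusted p under 0.05.

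The gated cells were not uniform, and CD24 divided them. When the cells of each mouse were split at its median CD24 antibody value, the CD24-low cells had more RNA of some MHC class I and maturation genes than the CD24-high cells. Over 4 mice with at least 10 cells in each part, 18 of 2173 genes passed (0.828%), 15 higher (0.690%) and 3 lower (0.138%). One of the 15, Cd8b1, encodes the partner of the gated CD8A. In the fit without mouse as a block 0 genes passed, with 148 at an unadjusted p under 0.05.

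H2-K1 had 779.8, 177, 1003 and 693 CPM in CD24-low cells of OT2 NegSelected, OT1 NegSelected, OT1 PosSelected and OT1 NoSelection, against 142, 36.2, 299.5 and 121 CPM in their CD24-high cells. It was higher in 4 of 4 mice (log2 fold change 2.18, SE 0.23, adjusted p = 2.5e-05 by edgeR). Of the 8 class I genes tested, H2-K1, H2-D1 (1.67) and B2m (0.93) rose, and of 11 maturation genes Klf2 (1.88), Ccr7 (1.64), Ms4a4b (1.52), Itgb7 (1.46) and Cd52 (1.31) rose, with none lower. The medians of these lists were 0.93 and 1.23, beside 0.01 over all genes.

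Nkg7, a granule protein of cytotoxic lymphocytes, had 267, 0, 426 and 140.2 CPM in CD24-low cells of OT2 NegSelected, OT1 NegSelected, OT1 PosSelected and OT1 NoSelection, against 0, 0, 91.3 and 5.48 CPM in their CD24-high cells (2.73, SE 0.39, adjusted p = 0.000968 by edgeR). It had 0 UMIs in all gated cells of the OT1 NegSelected mouse. Ctsw, a protease of the same kind of cell, rose by 2.03. The lymphotoxin gene Ltb (1.36), the kinase gene Stk10 (1.41) and Zfp36l1 (1.2) were also higher. Rrm2 (-1.58), Mcm4 (-1.41) and Dut (-1.19), which serve nucleotide supply and DNA replication, were lower. Of 11 cell-cycle list genes tested Rrm2 was the one that passed, and the list median was -0.37.

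Cycling and antibody depth moved with this split. CD24-low cells held 0, 2, 9 and 5 cycling cells in OT2 NegSelected, OT1 NegSelected, OT1 PosSelected and OT1 NoSelection, and CD24-high cells 0, 5, 14 and 9. The median antibody total was 1800, 5776.5, 1657 and 1172 in CD24-low cells of these mice and 4534, 5964, 4473 and 3114.5 in CD24-high cells. The part of antibody depth in the result was not tested. Without cycling cells 7 genes passed, among them H2-K1 (1.78, adjusted p = 0.000726 by edgeR), Nkg7 (2.17), Klf2 (1.60) and H2-D1 (1.27). Genes that passed numbered 5 without OT1 NoSelection and 2 without OT1 PosSelected, which gave the most cells.

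**Figure D4:**
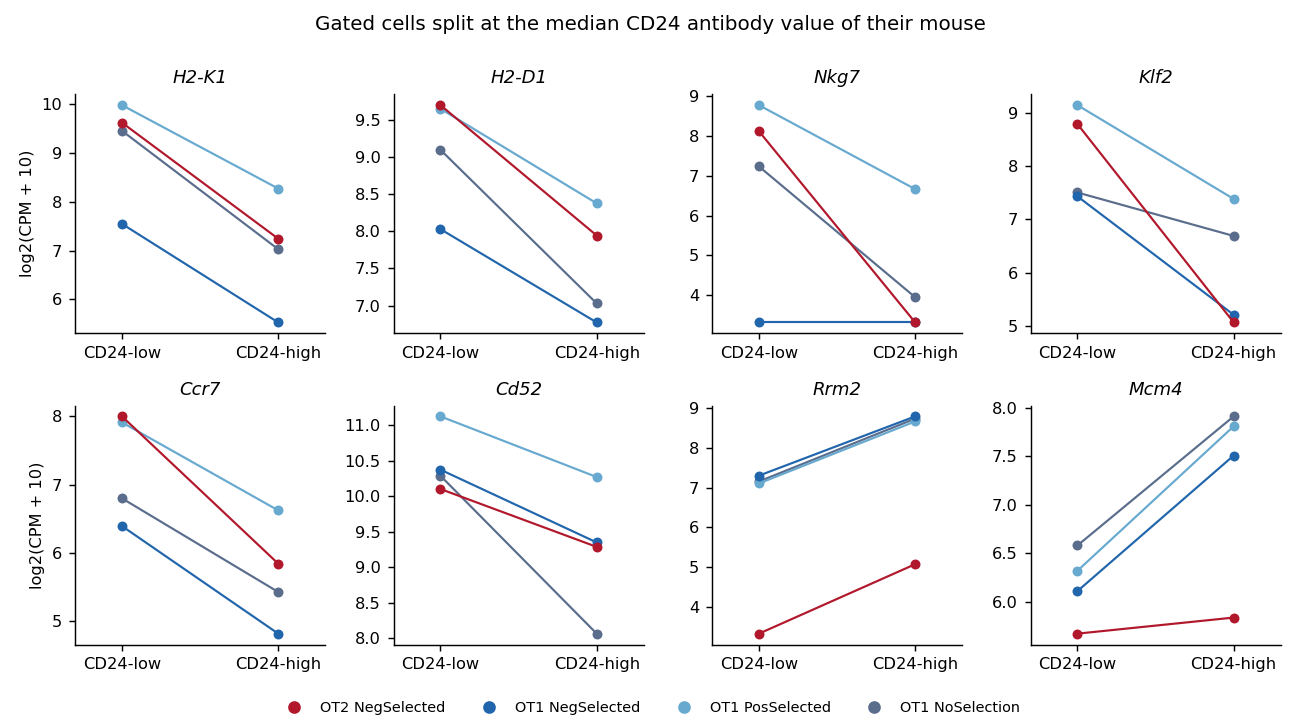
RNA level of 8 genes (vertical axes, log2 of CPM plus 10) in gated cells below and above the median CD24 antibody value of their mouse (horizontal axes), with a line for each of 4 mice. H2-K1 and H2-D1 are higher in the CD24-low cells of all 4 mice, and Rrm2 is lower in them.

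Across the 94 gated cells of the OT1 PosSelected mouse, the CD24 antibody value ran against ITB7 (Spearman rho -0.556), CD103 (-0.482) and CD8B (-0.420), and with CD5 (0.4665), CD28 (0.425) and LY108 (0.414). These correlations are across cells of 1 library that share an antibody total, and they are given as a description. Protein and RNA of the same gene ran together for ITB7 and Itgb7 (0.614), CD103 and Itgae (0.510), CD8B and Cd8b1 (0.382) and CD5 and Cd5 (0.378). CD69 and Cd69 (-0.107) and CD2 and Cd2 (0.0629) did not.

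The hosts were compared within OT1, where each mouse gave at least 32 gated cells. A gene was counted as past the fold where the exact interval of the ratio of its CPM lay wholly beyond 2-fold, among genes with at least 20 UMIs over both mice. Where a ratio is given without the cell of highest count, only that cell's UMIs of the gene were taken out. The RNA UMI total of its mouse still held the cell, so the CPM there is lower than with the cell fully removed. Ratios with the whole cell removed were not computed. Cells in cycle were 21.9% in NegSelected, 24.5% in PosSelected and 31.1% in NoSelection. Each ratio compares 2 mice, and not 2 conditions with replicates.

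In the RIPmOVA host, gated OT1 cells had less RNA of H2-K1, Klf2, Nkg7 and Ifi27l2a than in the wild-type host, while 2 of the 22 genes that were higher stayed past the fold without the cell of their highest count. Of 6048 genes 48 were past the fold (0.794%), 22 higher (0.364%) and 26 lower (0.43%) in NegSelected. The lower set depended on the innate-gene rule. With no innate-gene UMI allowed, 32 of 5427 genes were past the fold (0.590%), 21 higher (0.387%) and 11 lower (0.203%). Exactly 1 such UMI was held by 24 of 94 gated cells in PosSelected and by 1 of 32 in NegSelected. The part of those cells in the lower genes was not tested. Ifi27l2a, an interferon-response gene, was at 0 CPM in NegSelected and 336 CPM in PosSelected, at least 19.9-fold lower against a floor of 3 UMIs. The interval of its ratio reached 0.0622, which is a smaller fold. For every gene at 0, here and below, such a bound rests on this floor and is not the limit of the interval. Nkg7 was likewise at 0 CPM in NegSelected and 253 CPM in PosSelected, at least 15.0-fold lower. H2-K1 was at 89.7 CPM in NegSelected and 640.1 CPM in PosSelected (ratio 0.140, 0.0794 to 0.230). Other genes at 0 in NegSelected were Lfng, Tdrp, Vav3 and Il12rb2, at least 2.62-fold to 3.06-fold lower.

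By list, 4 of 17 maturation genes were lower (Klf2, Ms4a4b, Gimap3 and H2-Q7) and none higher, and the list summed to 2081 CPM in NegSelected and 4340 CPM in PosSelected. Klf2 was at 78.5 CPM in NegSelected and 349 CPM in PosSelected (ratio 0.225, 0.121 to 0.385). Of 8 CD8-lineage genes 4 were lower, namely Nkg7, Ctsw, Cd8a and Cd8b1, with the CD8A antibody at 37278 antibody CPM in NegSelected and 44042 in PosSelected. Of 9 class I genes H2-K1 and H2-D1 were lower.

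On the side of receptor signals, 4 of 6 genes on the deletion and agonist list were higher (Ikzf2, Nfkbia, Bcl2l11 and Gadd45b), with a list median log2 ratio of 1.60 beside 0.03 over all genes. Ikzf2, which encodes Helios, was at 752 CPM in NegSelected and 227 CPM in PosSelected (ratio 3.32, 2.61 to 4.21). Nfkbia, an inhibitor of NF-kappaB, was at 415 CPM in NegSelected and 139.8 CPM in PosSelected (2.97, 2.16 to 4.07). Egr2, induced by receptor signals, was at 107 CPM in NegSelected and 19.1 CPM in PosSelected (5.57, 2.61 to 12.3). Cd274, which encodes PD-L1, was at 84.1 CPM in NegSelected and 10.3 CPM in PosSelected (8.17, 3.13 to 23.7), and Batf was 5.86 times as high (2.78 to 12.8). None of these 5 genes was past the fold without the cell of its highest count, where the ratio was 2.53 for Ikzf2 (1.95 to 3.26), 2.29 for Nfkbia (1.62 to 3.21), 3.52 for Egr2 (1.47 to 8.36), 5.45 for Cd274 (1.87 to 16.9) and 2.64 for Batf (0.996 to 6.67). One cell held 19 of 20 NegSelected UMIs for Gadd45b (112 CPM in NegSelected and 2.94 CPM in PosSelected) and likewise for the histone gene H3c8. Hdac9, a histone deacetylase, was at 135 CPM in NegSelected and 7.36 CPM in PosSelected, with 15 of its 24 NegSelected UMIs in 1 cell, and 1 cell held 15 of the 22 NegSelected UMIs of Bcl2l11. When the UMIs of each gene in its cell of highest count were left out, 2 of the 22 higher genes (Hdac9 was one) and 17 of the 26 lower genes were still past the fold. Lfng, Vav3 and Il12rb2 were not.

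Against the B2m-deficient host, gated OT1 cells of the wild-type host had more RNA of Ifi27l2a, Inpp4b, Nkg7, Ctsw and Il7r. Of 6465 genes 26 were past the fold (0.402%), 16 higher (0.247%) and 10 lower (0.155%) in PosSelected. Ifi27l2a was at 336 CPM in PosSelected and 29.0 CPM in NoSelection (ratio 11.6, 6.00 to 25.7), Inpp4b at 409 CPM in PosSelected and 35.4 CPM in NoSelection (11.6, 6.36 to 23.4), and Rab6a at 61.8 CPM in PosSelected and 6.44 CPM in NoSelection, the last from 2 UMIs (9.60, 2.498 to 81.9). Nkg7 and Ctsw (2 of 9 CD8-lineage genes), Cd52 (1 of 17 maturation genes) and Il7r (1 of 12 post-selection genes) were also higher. The median log2 ratio was 0.94 for the maturation list, 0.94 for the CD8-lineage list and -0.62 for the preselection list, beside 0.02 over all genes. Acvrl1 and Ppp2r3d were at 0 in NoSelection (each at least 3.35-fold higher), and all 21 Igkv6-25 UMIs came from 1 cell.

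Lower in PosSelected than in NoSelection were Nr4a1 (38.3 CPM in PosSelected and 148 CPM in NoSelection, ratio 0.258, 0.153 to 0.427), Arpp21, a gene of preselection thymocytes (72.1 CPM in PosSelected and 216 CPM in NoSelection), Ly6d, Sox5, Xylt1 and Camk1d. None of these 6 was past the fold without the cell of its highest count, which held 18 of 46 NoSelection UMIs of Nr4a1 and 354 of 1065 of Camk1d. The ratio without it was 0.425 for Nr4a1 (0.239 to 0.751), 0.498 for Arpp21, 0.457 for Ly6d, 0.208 for Sox5, 0.457 for Xylt1 and 0.507 for Camk1d. Gzma, which encodes granzyme A and was not one of the 5 gate genes, was at 212 CPM in PosSelected and 602 CPM in NoSelection (0.352, 0.281 to 0.440), and Trgc1, of the gamma chain locus, at 5.89 CPM in PosSelected and 83.7 CPM in NoSelection. Without the highest cell Gzma was no longer past the fold (0.451, 0.356 to 0.572), and Trgc1 was the 1 of the 10 lower genes that still was, while 12 of the 16 higher genes were. Cd8a was at 543 CPM in PosSelected and 496 CPM in NoSelection (1.10, 0.905 to 1.33).

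**Figure D5:**
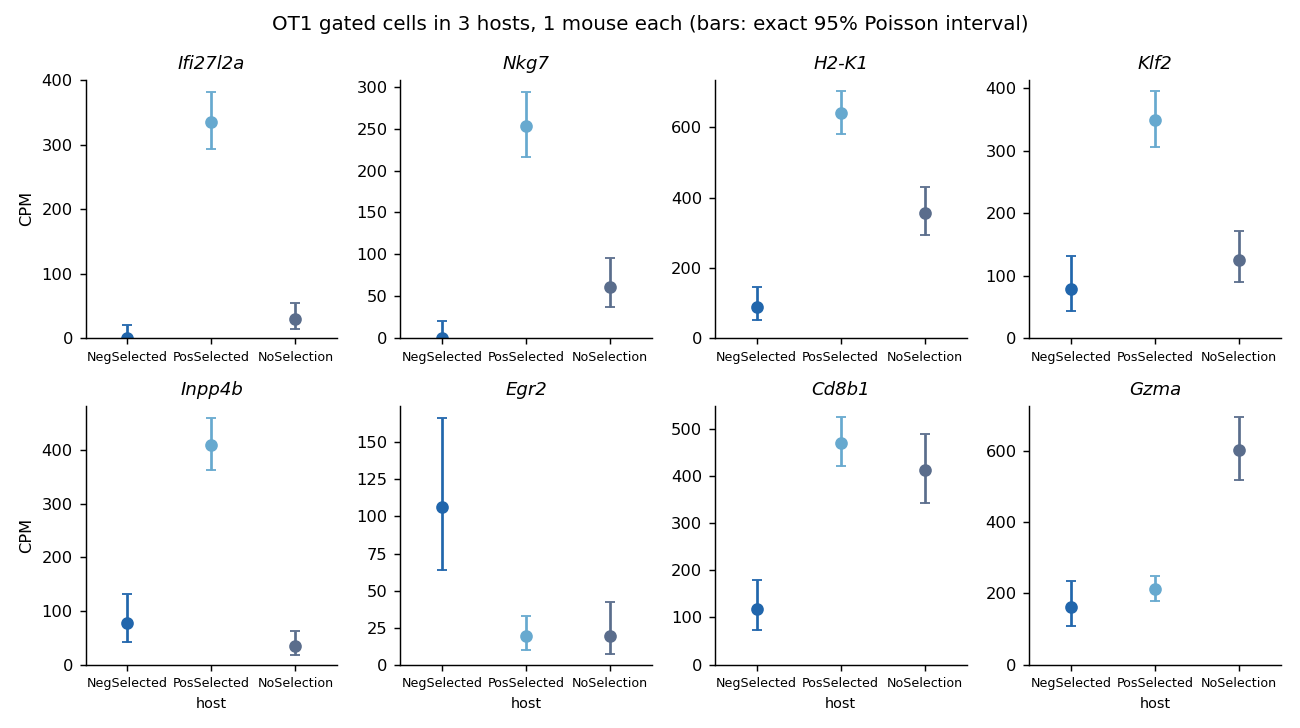
Level of 8 genes (vertical axes, CPM) in gated OT1 cells of the NegSelected, PosSelected and NoSelection mice (horizontal axes), 1 mouse each, with exact 95% Poisson intervals as bars. Nkg7 and Ifi27l2a are at 0 in NegSelected and highest in PosSelected, Egr2 is highest in NegSelected and Gzma in NoSelection.

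In the RIPmOVA host the maturation list of gated OT1 cells summed to 2081 CPM, against 2356 CPM in the B2m-deficient host. Its median log2 ratio was -0.53, beside 0.05 over all genes. Of its 13 genes with at least 20 UMIs, 3 were higher in NegSelected, and none was past the fold either way. Of 4230 genes 22 were past the fold (0.52%), 11 higher (0.26%) and 11 lower (0.26%) in NegSelected. Egr2 was at 107 CPM in NegSelected and 19.3 CPM in NoSelection (5.52, 2.12 to 16.9), and Basp1, a membrane-bound signalling protein, at 107 CPM in NegSelected and 16.1 CPM in NoSelection (6.62, 2.39 to 22.7). Gadd45b, Hdac9, H3c8 and Kcnq5 were also past the fold, and 63 of 80 Kcnq5 UMIs in NegSelected came from 1 cell. H2-K1 was at 89.7 CPM in NegSelected and 357 CPM in NoSelection (0.251, 0.139 to 0.426), Gzma at 163 CPM in NegSelected and 602 CPM in NoSelection (0.270, 0.176 to 0.401), and Dntt at 101 CPM in NegSelected and 357 CPM in NoSelection (0.283, 0.162 to 0.468). Gfra1 was at 0 CPM in NegSelected and 113 CPM in NoSelection (at least 6.69-fold lower, or 3.25-fold without 1 cell that held 18 of the 35 UMIs), and Prim1 and Rad51b, of DNA replication and repair, were lower from 1 and 2 UMIs in NegSelected. Without the cell of highest count 3 of the 11 higher and 2 of the 11 lower genes were still past the fold, Gfra1 among them, and Egr2 (3.49, 1.21 to 11.3), Basp1 (5.23, 1.81 to 18.4), H2-K1 (0.344, 0.188 to 0.593), Gzma and Dntt were not. The NegSelected mouse shares its values with the comparison against PosSelected above.

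The last comparison set the 10 gated OT2 cells of the wild-type host against the 94 gated OT1 cells of the wild-type host. The OT2 cells had no UMI of several cell-cycle genes. Of 5490 genes 47 were past the fold (0.856%), 29 higher (0.528%) and 18 lower (0.328%) in OT2, with a median log2 ratio over all genes of -0.13. Mki67, Top2a, Rrm2, Dut, Ube2c and H1f5 were at 0 in OT2 and at 266 to 518 CPM in OT1. Against the floor of 3 UMIs they were 2.77-fold to 5.38-fold lower. For Mki67 that floor gave 4.05-fold, or 2.46-fold without 1 cell that held 104 of its 265 UMIs. Without the highest cell 16 of the 29 higher and 10 of the 18 lower genes were still past the fold. Mki67 (interval up to 0.505) and Rrm2 (up to 0.569) were not. The cell-cycle list summed to 256.5 CPM in OT2 and 2671 CPM in OT1. Trdc was at 0 CPM in OT2 and 369 CPM in OT1 (at least 3.84-fold lower).

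Higher in OT2 was Rnf43, a ubiquitin ligase, at 641 CPM in OT2 and 4.41 CPM in OT1 from 20 and 3 UMIs (ratio 145, 43.1 to 763). Entpd5, Trim30a, Mr1, Ulk1 and Slc30a5 rested on 5 to 8 UMIs in OT2 each. Cd8b1 was at 1411 CPM in OT2 and 471 CPM in OT1 (2.996, 2.13 to 4.12), and Arpp21 at 321 CPM in OT2 and 72.1 CPM in OT1 (4.45, 2.01 to 8.89). Without cycling cells, which made up 0 of 10 OT2 and 23 of 94 OT1 cells, 13 genes were higher and 2 lower.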

How the data were processed

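For RNA and for surface antibodies, the authors deposited raw counts of UMIs by cell, not normalized, together with the hashtag of every cell. The submitters' processing notes name Cell Ranger 8.0.1, Seurat without a version, and mm10. How hashtags were assigned, and how cells or doublets were filtered, is not given in the sources used here. In all there were 1331 cells and 55494 genes, and 127 of 180 listed antibodies had a count. Libraries of receptor sequences were not analysed here, and results for a few genes are not reported here. No doublet caller was run, and cells over the 95th percentile of RNA UMIs (12147) were left out as an alternative.

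UMI counts were summed per mouse and class and tested with edgeR 4.0.16 (quasi-likelihood, TMM, filterByExpr, R 4.3.3), two-sided, with Benjamini-Hochberg adjustment over all features tested and a threshold of 0.05. Standard errors were derived from the fold change and the F statistic of the same fit. Antibodies needed 50 UMIs over the sums. Mice entered with at least 10 cells in both classes, or at least 5 where fewer than 3 mice had 10. Mouse was a block, because both classes come from the same mouse. The script was tested on simulated data. CD4+CD8A- and CD4+CD8A+ cells were gated at the same thresholds and also held at most 1 innate-gene UMI.

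Ratios between hosts have exact 95% conditional intervals from Poisson counts, and a count of 0 was set to 3 UMIs for a bound. This bound is not the limit of the interval, which can reach a smaller fold. For ratios without the cell of highest count, that cell's UMIs of the gene were subtracted and the RNA UMI totals were kept. Where a per-mouse log2 ratio is printed, 10 CPM was added. Alternatives were RLE factors, DESeq2 1.42.0, no block, no filter on low counts, other gates, at least 20 cells, capped antibody counts, each mouse left out and no cycling cells.

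The members, the lists and the tests were chosen with earlier results of these data known. Named genes were the 5 markers, up to 12 higher and 12 lower genes per test by fold change with at least 50 CPM (or, where under 5 passed, the 6 of lowest p), up to 6 each way per host ratio, antibodies that passed, and 2 to 4 genes of each list. Receptor segment, ribosomal, mitochondrial, Rik and Gm genes were left out. Trdc, Trgc1, Mki67, Ly6d and other genes printed beyond this rule come from those lists or were picked after their values were seen.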

Additional observations from a re-analysis of the deposited data

Results flagged for a closer look

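Of 66 genes and antibodies looked at by mouse, 5 had 1 mouse far from the others, and chance alone flags about 5% of such groups. The CD83 antibody in gated over CD4+CD8A- cells had a log2 ratio (CPM plus 10) of 6.31 in OT2 NegSelected, against -0.48 to 0.38 in the other mice, and in gated over CD4+CD8A+ cells it had 6.35 in OT2 NegSelected, against 0 to 0.38. Both values come from the same cell, which held 139 CD83 UMIs. Tagln2 in gated over CD4+CD8A+ cells was at 0.26 in OT1 NoSelection, against 1.70 to 1.98 in the other mice. In CD24-low over CD24-high cells, Cd52 was at 2.22 in OT1 NoSelection, against 0.81 to 1.02 in the others, and Mcm4 at -0.17 in OT2 NegSelected, against -1.49 to -1.33. Hmgb2 in gated over CD4+CD8A+ cells was above 0 in both OT1 mice and below 0 in both OT2 mice, with medians 1.58 apart (OT1 minus OT2). That difference was not tested, and cycling cells moved with it, as gated OT2 cells of these mice held none.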

How the results depend on the processing

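Counts of genes or antibodies that passed moved with the setting more than directions did. Of the fold changes named in the text, 756 values across the alternatives stayed in direction and on the same side of the threshold, 301 kept their direction but lost the threshold, 33 gained it and 1 reversed: CD83 in gated over CD4+CD8A+ cells was at -3.69 with thresholds 0.5 lower. Of the host ratios 148 stayed, 53 lost the fold and 5 lost their direction without the cell of highest count (log2 ratio of CPM plus 10): Igkv6-25 0 in PosSelected over NoSelection, H3c8 -0.27 in NegSelected over PosSelected, and Gadd45b -0.075, H3c8 -0.91 and Kcnq5 -0.18 in NegSelected over NoSelection. Of the genes called against CD4+CD8A- cells and also tested without cycling cells, 137 of 138 kept their direction.

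Mouse was a block in every main fit. In the fits with no replicate block, 284 genes passed against CD4+CD8A- cells, 0 genes and 1 antibody against CD4+CD8A+ cells, 12 antibodies against innate-gene-positive cells and 0 genes between CD24-low and CD24-high cells, while 20 antibodies passed against CD4+CD8A- cells.

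Against CD4+CD8A- cells (157 genes, 14 antibodies), leaving out 1 mouse at a time gave 55 to 155 genes and 4 to 15 antibodies. The gene count was 36 with at least 20 cells in both classes, 65 without cells of high UMIs, 83 with DESeq2, 301 with no filter, 97 and 239 with thresholds 0.5 lower and higher, and 31 without cycling cells. The antibody count was 9 with at least 20 cells, 5 with lower thresholds, 6 with no innate-gene UMI allowed and 9 without cycling cells.

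Against CD4+CD8A+ cells (1 gene, 3 antibodies), leaving out 1 mouse gave 1 to 9 genes and 0 to 1 antibodies. Crip1 was not among those genes without OT1 PosSelected or without OT2 NegSelected. In the latter fit the 1 gene that passed was tied to the gates of the classes. Genes numbered 3 with RLE factors, 7 with at least 20 cells and 7 without cells of high UMIs, 0 with DESeq2, 30 with no filter, 0 with higher thresholds, 0 with no innate-gene UMI and 15 without cycling cells. At an unadjusted p under 0.05 there were 129 genes with no replicate block, 59 with DESeq2, 48 with higher thresholds and 178 with no innate-gene UMI. Antibodies numbered 1 with capped counts, 1 with lower thresholds, 0 with higher thresholds (11 unadjusted) and 0 with no innate-gene UMI (8 unadjusted). Against innate-gene-positive cells (3 antibodies), leaving out any mouse gave 0 (20 to 25 unadjusted), capped counts 15, lower thresholds 1, no innate-gene UMI 12 and no cycling cells 1. That fit could not be made with at least 20 cells, which 1 mouse had. Between CD24-low and CD24-high cells (18 genes), leaving out 1 mouse gave 2 to 23, no cells of high UMIs 2, DESeq2 6, no filter 50 and no cycling cells 7.

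Shares moved beyond their interval to 24.8% (no innate-gene UMI) and 44.8% (thinned to 1500 UMIs) in OT1 PosSelected, 0.926% in OT2 NoSelection (higher thresholds), and 9.04% and 35.03% in OT2 NegSelected (lower and higher thresholds). Genes past the fold in PosSelected over NoSelection (26) were 15 with at least 50 UMIs, 12 with no innate-gene UMI and 15 without cycling cells. In NegSelected over PosSelected (48) they were 31 with at least 50 UMIs and 23 without the highest cell. With no innate-gene UMI they were 32 in that comparison, 21 higher and 11 lower, against 22 higher and 26 lower in the main setting. In NegSelected over NoSelection (22) they were 10 with at least 50 UMIs, 9 without the highest cell and 9 without cycling cells. In OT2 over OT1 PosSelected (47) they were 31 with at least 50 UMIs, 28 without the highest cell, 26 without cells of high UMIs and 15 without cycling cells. The cause of these changes was not tested. Few cells per mouse and shallow cells limit low genes such as Runx3 and Nrgn, and 1 mouse per group leaves the host differences without a replicate.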

Other observations

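The 4 gated cells of the OT2 NoSelection mouse entered no comparison, and their values were picked after they were seen. They had 36649 RNA UMIs in all, and 2 of them were in cycle. Mki67 was at 1419 CPM, Dntt at 791 CPM, Gzma at 709 CPM and Rag1 at 191 CPM, each the highest of the gated cells of the 6 mice, and Itm2a at 81.9 CPM was the lowest. The CD5 antibody was at 8890 antibody CPM in these cells, against 51953 to 112031 in gated cells of the other 5 mice.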
